A study of Mus musculus with 143 samples.

Results

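The genes described here are 10 of the 41128 mouse genes in the deposited count table: the glutathione peroxidases Gpx1, Gpx3, Gpx4, Gpx6, Gpx7 and Gpx8, the glutathione reductase Gsr, and the enzymes of glutathione synthesis Gclc, Gclm and Gss. They were taken by name, through the Ensembl identifiers of the table, and followed across all 18 groups of mice. The set was chosen by the zQ175 to wild-type difference of Gpx6 in untreated animals together with the function of the other genes, so that difference is given below as a description without a test. Genotype was tested in animals that took no part in it, those given an siRNA.

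RNA came from the striatum of zQ175 mice, which carry an expanded CAG repeat knocked into their own Htt gene and serve as a model of Huntington's disease, and of wild-type (WT) mice. Animals were left untreated, given NTC, an siRNA with no target, or given HTT-10150, an siRNA against Htt. The strategy names give ages in months: in 2[4]6 treatment was at 2 and collection at 6, in 6[4]10 treatment was at 6 and collection at 10, and in 2+6[8]10 treatment was at 2 and again at 6 with collection at 10. Every group had 4 females and 4 males, apart from the WT HTT-10150 group of 2+6[8]10, with 2 females and 5 males. The count table does not separate the mutant from the normal allele of Htt, the labels give neither the copy number of the zQ175 allele nor the route and dose of the siRNA.

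Glutathione is a tripeptide of glutamate, cysteine and glycine, and is the main small thiol of cells. Glutamate-cysteine ligase, made of a catalytic subunit (Gclc) and a modifier subunit (Gclm), joins the first pair of amino acids, and glutathione synthetase (Gss) adds glycine. Glutathione peroxidases spend glutathione to reduce hydrogen peroxide and lipid peroxides, and glutathione reductase (Gsr) returns the oxidised form to the reduced one with NADPH. Gpx1 is the common cytosolic enzyme, Gpx3 is the secreted one, and Gpx4 reduces lipid peroxides within membranes and restrains ferroptosis. Gpx7 and Gpx8 act in the endoplasmic reticulum, and Gpx6 was first described as an olfactory enzyme.

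The peroxidases differ at the catalytic residue, and the coding sequence around it is shown because it separates Gpx6, the gene with the largest difference, from Gpx1, Gpx3 and Gpx4. Each run is the catalytic codon in capitals with 4 codons on either side, 5′ to 3′ on the coding strand, from the GENCODE M21 transcripts on GRCm38. Codons are numbered in the longest annotated coding sequence of each gene, and the printed total leaves out its last amino acid codon.
Gpx1, codon 47 of 200, chr9:108339439-108339465, plus strand: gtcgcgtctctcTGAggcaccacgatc
Gpx3, codon 73 of 225, chr11:54907244-54907270, plus strand: gtagccagctacTGAggtctgacagac
Gpx4, codon 129 of 252, chr10:80054725-80054751, plus strand: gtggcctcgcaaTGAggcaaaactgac
Gpx6, codon 73 of 220, chr13:21313765-21313791, plus strand: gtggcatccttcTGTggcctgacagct
Gpx7, codon 56 of 185, chr4:108403418-108403444, minus strand: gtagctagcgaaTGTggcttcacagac
Gpx8, codon 79 of 208, chr13:113045649-113045675, minus strand: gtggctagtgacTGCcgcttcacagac
The annotation marks TGA as selenocysteine in Gpx1, Gpx3 and Gpx4. Mouse Gpx6 carries TGT, a cysteine codon, at the same place, as does Gpx7, and Gpx8 carries the other cysteine codon, TGC.

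The libraries held 12.55 M to 29.19 M counts each (median 18.85 M). Every one of the 10 genes passed the filter on low counts in all 3 strategies. That filter took in the groups of both genotypes, so Gpx6 could pass through its WT level alone. On the deposited TPM scale, which is per length, the median over 143 libraries was 486 for Gpx4 and 194 for Gpx1. The glutathione synthesis and recycling genes lay lower, at 51.9 for Gclc, 33.5 for Gsr, 31.1 for Gclm and 17.98 for Gss. Gpx8, Gpx7 and Gpx3 were rare, at 4.34, 4.24 and 3.48 TPM. Gpx6 depended on genotype, with a median of 16.6 TPM in WT, as much as Gss there, and 0.887 TPM in zQ175. Neighbours in this order were not tested against each other. Of the rest of the family, Gpx2 had 65 counts in all libraries together and was at 0 in 91 of 143, and Gpx5 had 2 counts and was at 0 in 141, and neither was tested. Gpx4 has processed pseudogene copies elsewhere in the genome, so its count depends on how the authors' program shared reads among them.

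Gpx6 (ENSMUSG00000004341, GRCm38 chromosome 13, 21312125 to 21319624, plus strand) was nearly absent from zQ175 striatum in every strategy and under every treatment. In WT animals given NTC, Gpx6 was at 8.54 ± 1.46 CPM (SD, n = 8) in 2[4]6, with a lowest, median and highest animal of 6.78, 8.27 and 11.2. In zQ175 animals given NTC in 2[4]6 it was at 0.613 ± 0.295, with 0.266, 0.553 and 1.22. The zQ175 animals all lay below the WT animals, and the log2 difference was -3.75 ± 0.21 (SE), a 13.4-fold decrease (edgeR adjusted p = 8.1e-20).

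The same comparison in 6[4]10 set WT animals at 9.62 ± 1.65 CPM (8.08, 8.79 and 12.1) against zQ175 animals at 0.438 ± 0.145 (0.270, 0.401 and 0.669). Gpx6 was 20.8-fold lower there, at -4.38 ± 0.23 on the log2 scale (adjusted p = 1.6e-20). In 2+6[8]10 the WT animals were at 9.55 ± 2.56 CPM (6.08, 9.57 and 12.57) and the zQ175 animals at 0.513 ± 0.195 (0.255, 0.478 and 0.912). That difference was 18.8-fold, or -4.23 ± 0.18 (adjusted p = 9.1e-26). No WT and zQ175 group of NTC animals overlapped in any strategy.

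Animals given HTT-10150, none of which are among the NTC animals, gave a 9.75-fold lower Gpx6 in zQ175 in 2[4]6 (-3.28 ± 0.20, adjusted p = 4.0e-18). The decrease was 27.8-fold in 6[4]10 (-4.80 ± 0.24, adjusted p = 5.0e-21) and 23.5-fold in 2+6[8]10 (-4.55 ± 0.18, adjusted p = 1.6e-26). In untreated animals, the contrast that was known when the genes were chosen, the log2 difference was -3.71, -4.36 and -4.62 in 2[4]6, 6[4]10 and 2+6[8]10. Across all animals Gpx6 ran from 4.28 to 14.3 CPM in 71 WT mice and from 0 to 1.35 CPM in 72 zQ175 mice. Raw counts were 74 to 281 in WT and 0 to 30 in zQ175, so counting error is a larger part of the spread in zQ175.

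Over the 18 groups, the 9 WT means lay between 8.22 and 10.6 CPM and the 9 zQ175 means between 0.344 and 0.845 CPM. Within WT the order ran from HTT-10150 animals of 2[4]6 at the bottom to HTT-10150 animals of 2+6[8]10 at the top. Within zQ175 it ran from HTT-10150 animals of 6[4]10 (0.344 ± 0.202) to HTT-10150 animals of 2[4]6 (0.845 ± 0.387), and the animals of these groups overlapped. Ranked by log2 fold change under NTC, Gpx6 was number 2 of 15716 genes from the bottom in 2[4]6, number 4 of 15757 in 6[4]10 and number 4 of 15506 in 2+6[8]10. Among genes with a mean log2 CPM over 1 it was number 1, 1 and 2.

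**Figure D1:**
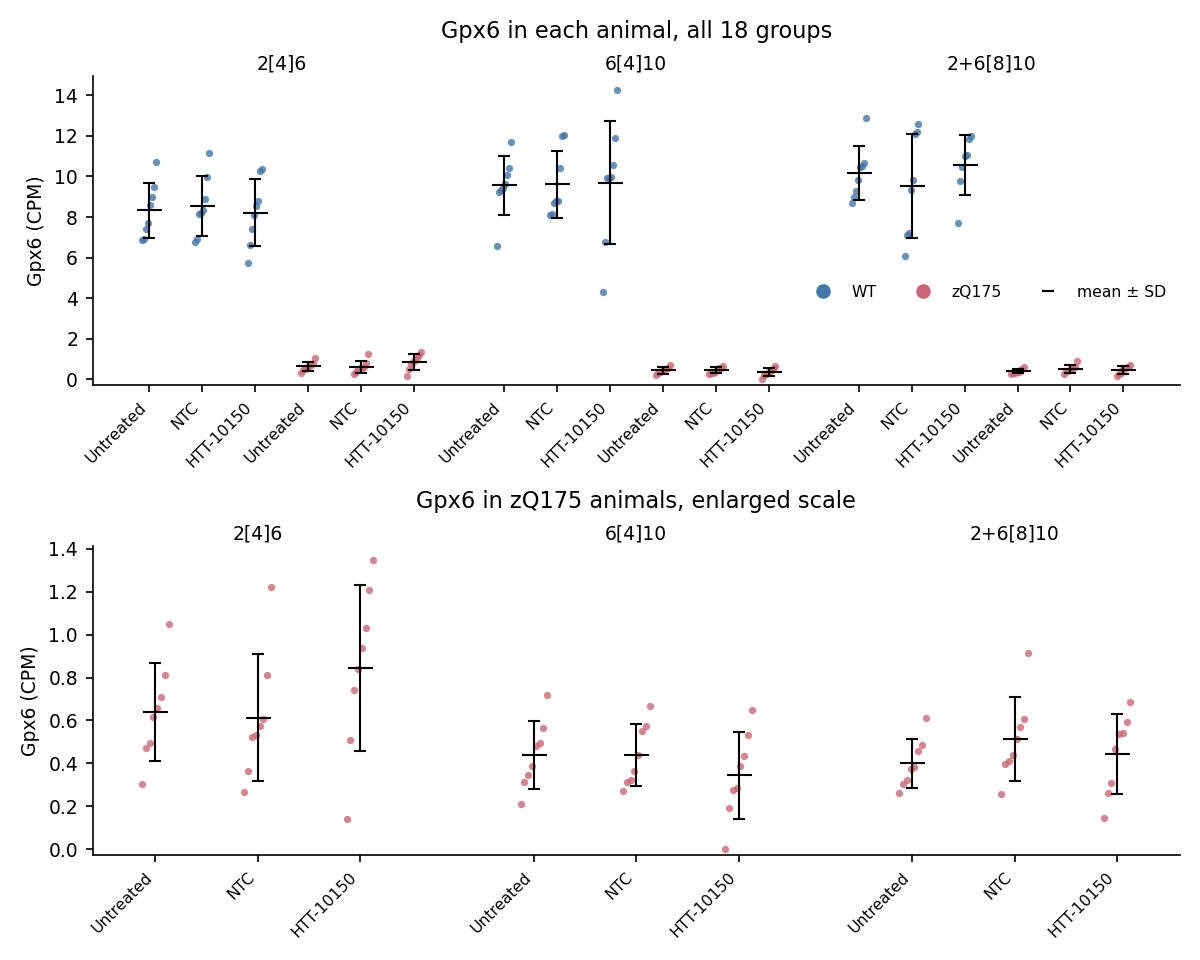
Gpx6 in TMM-scaled CPM (vertical axis) for each animal of the 18 groups, by strategy, genotype and treatment, with the mean and SD of each group in black; the lower panel repeats the zQ175 groups on an enlarged scale. No WT animal is under 4.28 CPM and no zQ175 animal is over 1.35 CPM, and the zQ175 groups of the 3 treatments overlap.

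HTT-10150 did not move Gpx6 past the threshold in any strategy. In zQ175 animals of 2[4]6, Gpx6 was at 0.845 ± 0.387 CPM (0.138, 0.889 and 1.35) with HTT-10150, against 0.613 ± 0.295 with NTC. The log2 difference was 0.41 ± 0.27, with a 95% interval of -0.11 to 0.93 (adjusted p = 0.92). In 6[4]10 it was -0.40 ± 0.35 (interval -1.08 to 0.28, adjusted p = 0.9999), and in 2+6[8]10 it was -0.12 ± 0.25 (interval -0.61 to 0.38, adjusted p = 0.88). In WT animals the differences were -0.06 ± 0.16, 0.02 ± 0.16 and 0.21 ± 0.13 in the same order. The upper bound in zQ175, 0.93, lies far from the 3.75 or more that separated the genotypes under NTC.

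Htt itself, the target, was lower in HTT-10150 animals than in NTC animals by -0.36 ± 0.06 on the log2 scale in zQ175 of 2+6[8]10 (edgeR adjusted p = 0.00035). It stood at -0.32 ± 0.08 in 6[4]10 (adjusted p = 0.60) and -0.01 ± 0.05 in 2[4]6 (adjusted p = 0.99), neither called. Within the 8 treated zQ175 animals of a strategy, Htt and Gpx6 had r = 0.67 in 2[4]6 (exact permutation p = 0.085), -0.34 in 6[4]10 (p = 0.39) and 0.53 in 2+6[8]10 (p = 0.21). Adjusted over these 3 relations the exact permutation p-values were 0.26, 0.39 and 0.32. Spearman's rho was 0.43, -0.40 and 0.14 (exact permutation p = 0.30, 0.33 and 0.75; 0.49, 0.49 and 0.75 when adjusted over the 3). Without the 2 animals farthest from the median Htt, r was 0.20, -0.11 and 0.15, so the larger values rest on those animals.

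As a description, since the untreated values took part in the choice of Gpx6, its log2 difference between NTC and untreated zQ175 animals was -0.01, -0.01 and 0.28 in 2[4]6, 6[4]10 and 2+6[8]10. The genotype effect under NTC was deeper by -0.63 ± 0.33 in 6[4]10 than in 2[4]6 (adjusted p = 0.42), and by -0.48 ± 0.33 in 2+6[8]10 than in 2[4]6 (adjusted p = 0.47). Between 2+6[8]10 and 6[4]10 it differed by 0.15 ± 0.34 (adjusted p = 0.91). Age, cohort and dosing differ together between strategies and cannot be told apart. The genotype effect in males minus that in females was -0.69 ± 0.43, -0.27 ± 0.53 and 1.04 ± 0.34, and the last had an unadjusted p of 0.0034 and an adjusted p of 0.99999. Gpx6 fell in both sexes of 2+6[8]10, with a log2 difference of -4.73 ± 0.21 in females and -3.69 ± 0.21 in males.

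Gpx6 moved with the RNA of the projection neurons of the striatum. Of 16 markers of medium spiny neurons, 15 were called lower in zQ175 under NTC in each strategy. Of all genes, 34.4%, 32.8% and 42.1% were called in either direction in 2[4]6, 6[4]10 and 2+6[8]10. The 16 markers had median log2 differences of -0.80, -0.73 and -0.92 in the same order. The median over all tested genes was -0.00, 0.01 and 0.01. The summed level of the markers in 2[4]6 NTC animals ran from 13576 to 16461 CPM in WT and from 7270 to 8354 CPM in zQ175, and no marker was at 0. In bulk tissue, fewer cells of a type and less RNA per cell cannot be told apart. The Gpx6 differences were several log2 units larger than these medians, and the part of the markers in them was not tested.

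After group and sex means were removed, Gpx6 followed the medium spiny neuron markers over 143 libraries with r = 0.53 and rho = 0.33, and r = 0.35 without the 2 libraries farthest from the median of the markers. All points share the libraries' depth and dissection. The correlation was 0.44 in the 71 WT and 0.55 in the 72 zQ175 libraries, and over all libraries 0.52 for direct and 0.34 for indirect pathway markers, which became 0.32 and 0.20 without the 2 farthest libraries. In WT libraries Gpx6 also went against interneuron markers (r = -0.55; 0.16 in zQ175) and against cortical and thalamic markers (r = -0.53; -0.19 in zQ175). The 2 zQ175 libraries with the least Gpx6 also stood apart in these markers. The 6[4]10 HTT-10150 male with replicate number 2 had 0 counts of Gpx6, Drd1 at 68.3 CPM (138 to 167 in the other 7) and Slc17a7, a cortical marker, at 249 (9.39 to 134 in the others). The 2[4]6 HTT-10150 female with replicate number 4 had Gpx6 at 0.138, Drd1 at 107.1 CPM (149 to 183 in the others) and a choroid plexus marker sum of 4322 CPM. Without these libraries the means of the HTT-10150 groups were 0.394 ± 0.158 in 6[4]10 (0.438 with NTC) and 0.946 ± 0.283 in 2[4]6 (0.613 with NTC, n = 7 in each reduced group). Leaving out the lowest animal must raise a mean, and the NTC groups were kept whole. No treatment effect is therefore read from these means.

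The genes whose 18 group means followed those of Gpx6 most closely were Abi3bp, Gpr83 and Rspo1 (r = 0.996 each) and Sec14l3 and Abhd11os (r = 0.995 each), a description that mostly reflects the step between genotypes. All 5 were lower in zQ175 under NTC in every strategy, Abhd11os with log2 differences of -3.25 to -2.66 and Gpr83 with -0.95 to -0.80. Within groups, over 143 libraries, the closest were Clec12a (r = 0.61), Scn4b and Pcp4l1 (0.59 each), Drd1 (0.58) and Nkain2 (0.57). Scn4b, a sodium channel subunit of medium spiny neurons, fell by 1.58 ± 0.08, 1.74 ± 0.13 and 1.80 ± 0.06 log2 units. Nkain2 was not called for genotype (0.06 ± 0.04, 0.02 ± 0.04 and 0.04 ± 0.03), although it followed Gpx6 between animals of one group.

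No gene around Gpx6 came near its decrease. Of 26 other genes annotated within 250 kb, 8 were tested in all 3 strategies, and their log2 differences under NTC ran from -0.25 to 0.32. The zinc finger genes Zscan26, Zkscan3 and Zkscan8 were called lower in 2+6[8]10, Zscan26 also in 6[4]10 (-0.25), and Trim27 was called higher in 2[4]6 (0.20) and 2+6[8]10. Of all genes, 34.4%, 32.8% and 42.1% were called in 2[4]6, 6[4]10 and 2+6[8]10, so nothing particular to the region is drawn from these calls. Gpx5, the neighbouring family member, lies at 21286429 to 21292731 and was at 0 in 141 of 143 libraries.

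Under NTC, the other 9 genes differed between genotypes by 0.49 log2 units at most. In 2[4]6, 2 of the 10 genes were called at an adjusted p under 0.05 (Gss higher, Gpx6 lower), against 34.4% of all genes tested. In 6[4]10 the count was 3 (Gss and Gclm higher, Gpx6 lower; 32.8% of all genes), and in 2+6[8]10 it was 3 (Gclm higher, Gpx4 and Gpx6 lower; 42.1%). With 10 genes, such counts cannot be set apart from the shares of all genes. Their median log2 difference was -0.08, 0.03 and 0.05, beside -0.00, 0.01 and 0.01 for all genes.

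Among HTT-10150 animals the counts were 3 of 10 in 2[4]6 (Gss higher, Gsr and Gpx6 lower; 33.5% of all genes), 2 in 6[4]10 (Gpx1 higher, Gpx6 lower; 34.7%) and 3 in 2+6[8]10 (Gpx1 higher, Gclc and Gpx6 lower; 36.2%). Apart from Gpx6, no gene was called in the same direction in all 3 strategies in either set of animals. The genotype effect under NTC did not differ between strategies past the threshold for any of the 10 genes by edgeR or DESeq2. The shares of all genes called were 0.411% for 6[4]10 against 2[4]6, 4.87% for 2+6[8]10 against 2[4]6 and 0.0307% for 2+6[8]10 against 6[4]10. At an unadjusted p under 0.05 there was 1 gene in the first (Gpx7), 1 in the second (Gclm) and 0 in the third.

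**Figure D2:**
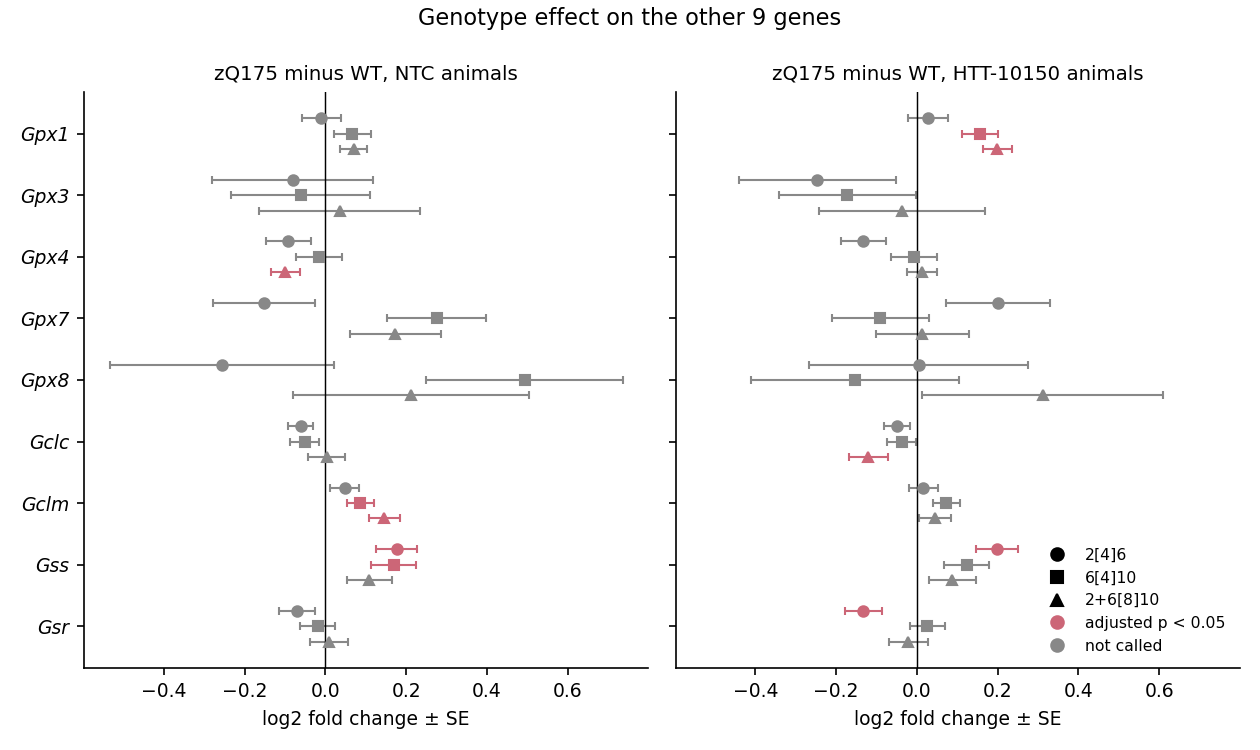
Log2 fold change of zQ175 against WT with its SE (horizontal axis) for the 9 genes other than Gpx6, in NTC animals (left) and HTT-10150 animals (right), with a marker shape for each strategy and red for an adjusted p under 0.05. Gss lies right of 0 in all 6 comparisons, and Gpx8 has the widest errors.

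Gss, the enzyme that completes glutathione, was slightly higher in zQ175. In 2[4]6 NTC animals the lowest, median and highest values were 13.6, 14.7 and 15.2 CPM in WT and 13.9, 16.8 and 18.01 CPM in zQ175, and 7 of 8 zQ175 animals lay above the WT mean. Gss rose by 0.18 ± 0.05 log2 units (adjusted p = 0.0060). In 6[4]10 it rose by 0.17 ± 0.06 (adjusted p = 0.014), from 16.2 ± 0.784 to 18.2 ± 0.753 CPM, with all 8 zQ175 animals above the WT mean. The call in 6[4]10 ended without replicate number 1, 3 or 4 (adjusted p = 0.075, 0.053 and 0.053), while the change stayed at 0.16 or more. In 2+6[8]10 the difference of 0.11 ± 0.06 was not called (adjusted p = 0.11).

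Under HTT-10150, Gss rose by 0.20 ± 0.05 in 2[4]6 (adjusted p = 0.0023) and stood at 0.12 ± 0.06 in 6[4]10 (adjusted p = 0.079) and 0.09 ± 0.06 in 2+6[8]10 (adjusted p = 0.24). Untreated zQ175 animals were 0.17, 0.20 and 0.15 log2 units above WT. Within groups, Gss followed oligodendrocyte markers (r = 0.47, rho = 0.45, n = 143; r = 0.43 without the 2 libraries farthest in the markers). Of 10 such markers, 0 were called higher and 4, 5 and 5 lower in zQ175 under NTC, where 34.4%, 32.8% and 42.1% of all genes were called. The part of these markers in the Gss difference was not tested. Gjb1 and Gpr62, both genes of oligodendrocytes, were among the genes that followed Gss most closely (r = 0.55 each).

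Gclm, the modifier subunit of the first enzyme of synthesis, rose in zQ175 under NTC in 2+6[8]10 by 0.15 ± 0.04 log2 units (adjusted p = 0.0016). The WT animals there were at 50.9, 58.9 and 64.02 CPM (lowest, median and highest) and the zQ175 animals at 60.05, 64.2 and 69.1 CPM, so the groups overlapped while all 8 zQ175 animals lay above the WT mean. In 6[4]10 it rose by 0.09 ± 0.03 (adjusted p = 0.044), a call that 4 alternatives of the fit and leaving out replicate number 2, 3 or 4 each ended (adjusted p = 0.053 to 0.14). In 2[4]6 it stood at 0.05 ± 0.04 (adjusted p = 0.31), and under HTT-10150 at 0.02, 0.07 and 0.04 with no call. Gclm moved against the GC slope of the libraries, described below for Gpx4, with r = -0.47 over 143 libraries, and both NTC calls held with the length and GC slopes as covariates.

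Gclc, the catalytic subunit, was not called under NTC (-0.06, -0.05 and 0.00). It fell by 0.12 ± 0.05 in HTT-10150 animals of 2+6[8]10 (adjusted p = 0.047), from 75.5, 81.4 and 85.3 CPM in WT to 61.8, 77.3 and 79.5 CPM in zQ175. The male with replicate number 4 was the lowest of these zQ175 animals, at 61.8 CPM with the others from 71.5 up. Leaving out all libraries numbered 4 kept this call, while leaving out number 1, 2 or 3 ended it (adjusted p = 0.16, 0.15 and 0.11), as did DESeq2, scaling by RLE, keeping all low genes and the length and GC slopes described below (0.050, 0.052, 0.077 and 0.064), so it held in 7 of 14 alternatives.

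Upstream of Gclm lies a match to the core of the antioxidant response element, the site bound by NRF2 with small MAF proteins, and it is shown because none of the other 7 genes with a promoter in the RefSeq table has one. The letters searched were TGACNNNGC on either strand, GCNNNGTCA when reversed, in windows of 300 bases (250 before to 50 after the start site, GRCm38.p6). Gclm, chr3:122245393-122245461, plus strand, match in capitals, 134 bases before the start site: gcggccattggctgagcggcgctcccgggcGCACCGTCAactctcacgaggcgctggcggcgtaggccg
Of all 32851 windows, 4071 (12.4%) hold such a match. The 8 genes of the set with a promoter have 11 windows, of which 1 holds a match, a share near that of all windows. Gsr and Gclc have no window in the table. The match is a description of letters and not evidence of binding.

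Gsr was not called under NTC (-0.07 ± 0.05, -0.02 ± 0.04 and 0.01 ± 0.05). In HTT-10150 animals of 2[4]6 it fell by 0.13 ± 0.05 (adjusted p = 0.022), from 40.5 ± 3.45 CPM in WT to 36.9 ± 1.48 in zQ175, with all 8 zQ175 animals under the WT mean. That call ended without replicate number 2, 3 or 4 (adjusted p = 0.073 to 0.22) with only the 2 groups in the fit (0.053), and with the length and GC slopes as covariates (0.084). Gsr had r = -0.38 (rho = -0.35) with the length slope.

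Gpx1, the abundant cytosolic peroxidase, differed between genotypes in HTT-10150 animals of both 10-month strategies. In 2+6[8]10 the WT animals were at 78.4, 80.8 and 83.8 CPM (lowest, median and highest, n = 7) and the zQ175 animals at 84.2, 92.0 and 103 CPM, without overlap. Gpx1 rose by 0.20 ± 0.04 there (adjusted p = 8.4e-06), and by 0.16 ± 0.05 in 6[4]10 (adjusted p = 0.0055), where the means were 86.9 ± 4.19 and 96.7 ± 6.69 CPM and the groups overlapped. Without replicate number 3 the 6[4]10 difference was 0.14 (adjusted p = 0.053). In 2[4]6 it stood at 0.03 ± 0.05. Under NTC the differences were smaller and not called, at -0.01 ± 0.05, 0.07 ± 0.05 and 0.07 ± 0.03 (adjusted p = 0.90, 0.28 and 0.090). On the deposited TPM scale, without TMM scaling, zQ175 NTC animals averaged more Gpx1 in every strategy. The zQ175 and WT means were 204.9 and 191.1 in 2[4]6, 212.6 and 191.4 in 6[4]10, and 191.4 and 170.4 in 2+6[8]10. Untreated zQ175 animals also averaged more Gpx1 than untreated WT, a description without a test. Those means were 95.7 and 89.4 CPM in 2[4]6, 105 and 89.8 in 6[4]10, and 87.5 and 81.0 in 2+6[8]10. The highest untreated zQ175 animal of 6[4]10 stood at 129 CPM.

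Gpx4, the lipid peroxide reductase, was lower in zQ175 NTC animals of 2+6[8]10, at 174.9, 195 and 200.1 CPM against 194, 202 and 234 CPM in WT (-0.10 ± 0.04, adjusted p = 0.022). On the deposited TPM scale, without TMM scaling, the same zQ175 animals averaged 468.2 ± 22.8 and the WT animals 468.7 ± 24.3. The highest WT animal, the male with replicate number 2, stood at 234 CPM with the others up to 209.7. Without replicate number 2 the difference was -0.08 and not called (adjusted p = 0.14), nor was it called without number 1 (-0.11, adjusted p = 0.062). In 2[4]6 and 6[4]10 it was -0.09 ± 0.06 and -0.02 ± 0.06, not called.

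Giving HTT-10150 in place of NTC raised Gpx1 and Gpx4 past the threshold in zQ175 of 2+6[8]10, and called no other of the 10 genes in any strategy. Called genes among the 10 numbered 0 in 2[4]6 and 0 in 6[4]10, where edgeR called 0.0% of all genes in both, and 2 in 2+6[8]10, where it called 3.16%. DESeq2 also called 0, 0 and 2. At an unadjusted p under 0.05 there was 1 gene in 2[4]6 (Gsr), 1 in 6[4]10 (Gpx8) and 3 in 2+6[8]10 (Gclc, Gpx1 and Gpx4). These comparisons share the NTC animals with the NTC genotype comparisons.

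In 2+6[8]10, Gpx1 in zQ175 rose from 85.3 ± 3.82 CPM with NTC (79.1, 85.8 and 91.0) to 93.7 ± 6.86 with HTT-10150 (84.2, 92.0 and 103). The log2 change was 0.14 ± 0.03 (adjusted p = 0.017), and 7 of 8 treated animals lay above the NTC mean. Gpx4 rose from 192 ± 8.87 CPM (174.9, 195 and 200.1) to 209 ± 14.04 (191, 209 and 233), a change of 0.13 ± 0.04 (adjusted p = 0.038), also with 7 of 8 above the NTC mean. The groups overlapped for both genes. Neither gene was called without replicate number 1, 3 or 4, where Gpx1 stood at 0.16, 0.12 and 0.08 (adjusted p = 0.063, 0.12 and 0.29) and Gpx4 at 0.12, 0.09 and 0.12 (adjusted p = 0.20, 0.30 and 0.11). With untreated animals as the control the changes were 0.10 for Gpx1 (adjusted p = 0.10) and 0.08 for Gpx4 (adjusted p = 0.27), not called.

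The levels of both genes moved with a property of the libraries. For each library the slope of gene levels on transcript length was computed, in units of its SD over the 143 libraries. Within groups Gpx4 had r = -0.68 (rho = -0.58) and Gpx1 r = -0.46 (rho = -0.41) with this slope. With the slope on GC content Gpx4 had r = 0.63 (rho = 0.60). The lowest length slope, -6.60, was that of an untreated zQ175 library of 6[4]10. The length slope was -0.41 ± 0.76 in zQ175 HTT-10150 animals of 2+6[8]10 and 1.05 ± 0.61 in their NTC controls. With both slopes as covariates, a setting chosen after seeing the data, the HTT-10150 change of Gpx4 was -0.00 (adjusted p = 0.99) and that of Gpx1 was 0.11 (adjusted p = 0.25). In the same setting the NTC genotype difference of Gpx4 in 2+6[8]10 was -0.01 (adjusted p = 0.87). The slopes were computed from the expression of these same libraries and differed between the groups compared. A library property and a treatment or genotype effect that goes with transcript length therefore cannot be told apart in this setting.

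In WT animals HTT-10150 gave no call among the 10 genes (0 in each strategy by edgeR and by DESeq2). Of all genes edgeR called 0.00636% in 2[4]6, 0.0% in 6[4]10 and 0.0129% in 2+6[8]10, and Gpx7 in 6[4]10 was the 1 gene with an unadjusted p under 0.05 (0.36 ± 0.12). The HTT-10150 effect in zQ175 minus that in WT was not called for any of them, with 0.0%, 0.0% and 0.529% of all genes called. For Gpx1 in 2+6[8]10 it was 0.13 ± 0.05 (adjusted p = 0.23) and for Gpx4 it was 0.11 ± 0.05 (adjusted p = 0.36), so a difference between the genotypes in the response is not shown.

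**Figure D3:**
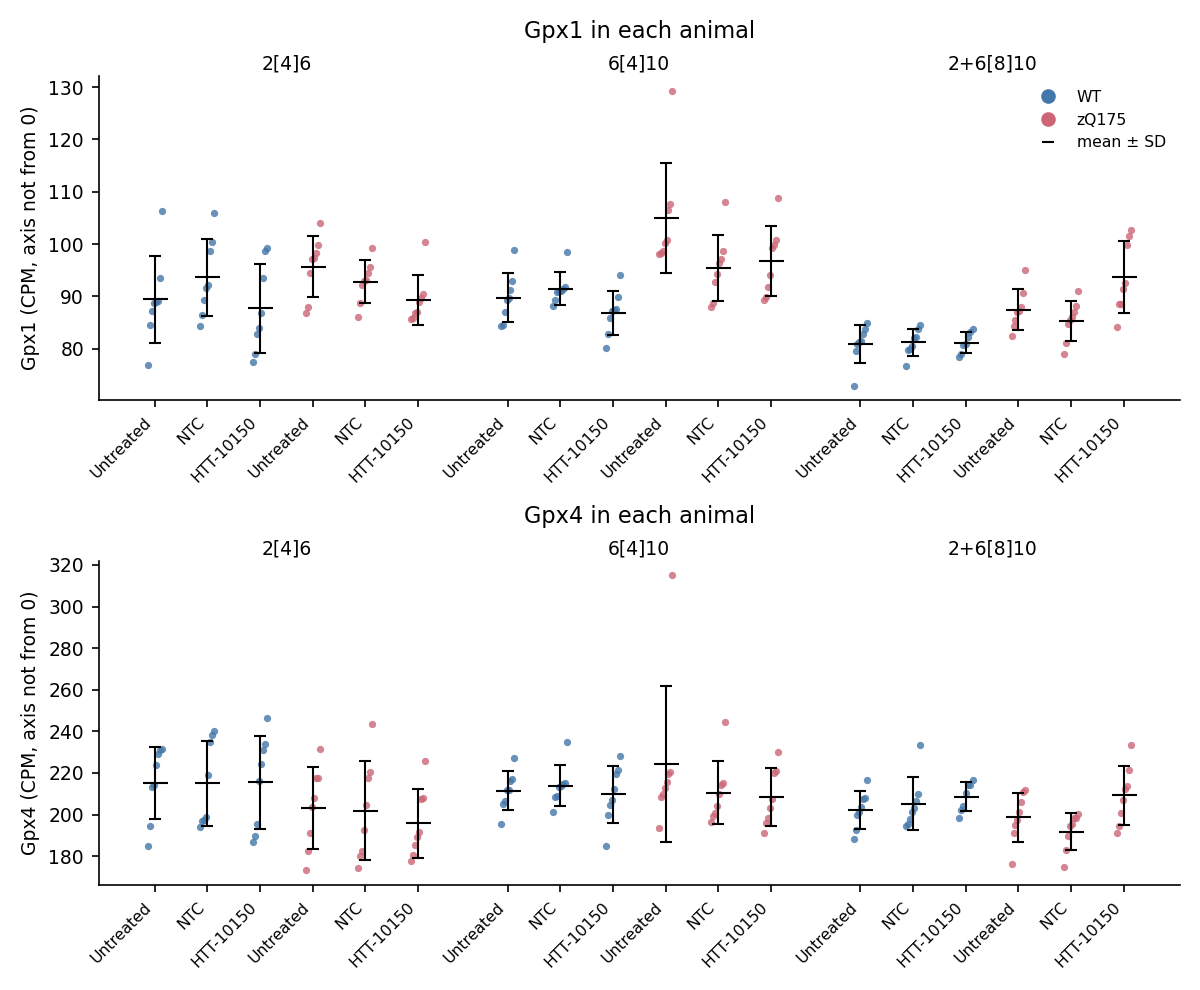
Gpx1 (top) and Gpx4 (bottom) in TMM-scaled CPM for each animal of the 18 groups, with group mean and SD in black; the vertical axes do not start at 0. In 2+6[8]10 the zQ175 HTT-10150 animals average 93.7 CPM of Gpx1 and 209 of Gpx4, against 85.3 and 192 with NTC, and one untreated zQ175 animal of 6[4]10 is the highest of all for both genes.

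NTC against untreated animals called 0 of the 9 genes other than Gpx6 in either genotype and any strategy by edgeR and by DESeq2, where 0.0% of all genes were called except for 0.181% in WT of 2+6[8]10. Genes with an unadjusted p under 0.05 were Gpx1 and Gsr in zQ175 of 6[4]10 and Gclm in WT of 2+6[8]10.

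Untreated animals were compared between strategies in one fit over all libraries. In WT, Gpx1 was lower in 2+6[8]10 than in 2[4]6 by -0.16 ± 0.05 (adjusted p = 0.023; 1 of 10 genes called, 7.57% of all genes). It was lower by the same -0.16 ± 0.05 against 6[4]10, which has the same age (adjusted p = 0.023), where Gclm was higher by 0.14 ± 0.04 (adjusted p = 0.010; 2 of 10 called, 9.09% of all genes). Between 6[4]10 and 2[4]6 none of the 10 was called in WT by edgeR or DESeq2, with 0 at an unadjusted p under 0.05, although 16.4% of all genes were. The calls in WT were unsteady: without replicate number 3, Gpx1 against 2[4]6 was at -0.11 (adjusted p = 0.36), and it ended also without number 4, and both calls against 6[4]10 ended without number 1, 2 or 4 (adjusted p = 0.053 to 0.19). In zQ175, Gpx1 in 2+6[8]10 fell by 0.27 ± 0.05 against 6[4]10 (adjusted p = 2.2e-05), and Gpx4 by 0.18 ± 0.06 (adjusted p = 0.017; 2 of 10 called, 17.5% of all genes). Between 2+6[8]10 and 2[4]6 in zQ175 edgeR and DESeq2 called 0 (1.52% of all genes), with Gpx1 at an unadjusted p under 0.05. The length slope was 0.93 ± 1.004 in untreated zQ175 libraries of 2+6[8]10, -1.35 ± 2.21 in 6[4]10 and -0.27 ± 0.96 in 2[4]6, and its part in these changes of Gpx1 and Gpx4 was not tested. The strategies of equal age are separate cohorts, so a difference between them cannot be told apart from cohort.

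In zQ175 of 6[4]10 against 2[4]6, Gpx4 rose by 0.20 ± 0.06 (adjusted p = 0.0068) and Gpx1 by 0.12 ± 0.05 (adjusted p = 0.048; 2 of 10 called, 19.4% of all genes). One library stood apart here: the untreated 6[4]10 zQ175 male with replicate number 2 had Gpx4 at 315 CPM, with 193 to 221 in the other 7, and Gpx1 at 129 CPM, with 98.0 to 108 in the others. Without it, the change of Gpx4 was 0.13 (adjusted p = 0.069) and that of Gpx1 was 0.08 (adjusted p = 0.23), and the decrease of Gpx4 from 6[4]10 to 2+6[8]10 was -0.11 (adjusted p = 0.16). The decrease of Gpx1 from 6[4]10 to 2+6[8]10 in zQ175 remained called without it.

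Males had more Gpx4 than females in 2[4]6, by 0.15 ± 0.03 log2 units (adjusted p = 0.00092; 1 of 10 genes called, 16.6% of all genes). With the length and GC slopes as covariates it was 0.05 (adjusted p = 0.039), and Gpx1 was then also called, at -0.12 (adjusted p = 0.0011). In 6[4]10 and 2+6[8]10 no gene of the 10 was called for sex by edgeR or DESeq2 (2.21% and 2.1% of all genes), with Gpx3 and Gpx8 in the first and Gpx3, Gpx4, Gpx6 and Gsr in the second at an unadjusted p under 0.05. The genotype effect did not differ between sexes past the threshold for any of the 10 in any strategy by either tool, with 0.0% of all genes called and Gpx1 in 2[4]6 and Gpx6 in 2+6[8]10 at an unadjusted p under 0.05.

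Gpx8, an endoplasmic reticulum peroxidase, varied between animals of one group together with markers of the choroid plexus. The 12 choroid plexus markers summed to 31.7 to 5741 CPM per library with a median of 89.95. In the 16 libraries with a sum over 1000 CPM (7 WT and 9 zQ175), Gpx8 had a median of 4.62 CPM with a range of 2.00 to 7.28. In the other 127 the median was 1.86 and the range 1.12 to 2.93. Within groups Gpx8 followed choroid plexus markers with r = 0.78 and rho = 0.61 over 143 libraries, and with r = 0.76 without the 2 libraries farthest from the median of the markers. For meningeal markers r was 0.74, and the genes closest to Gpx8 were Lbp (r = 0.84), Enpp2 and Drc7 (0.83 each).

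**Figure D4:**
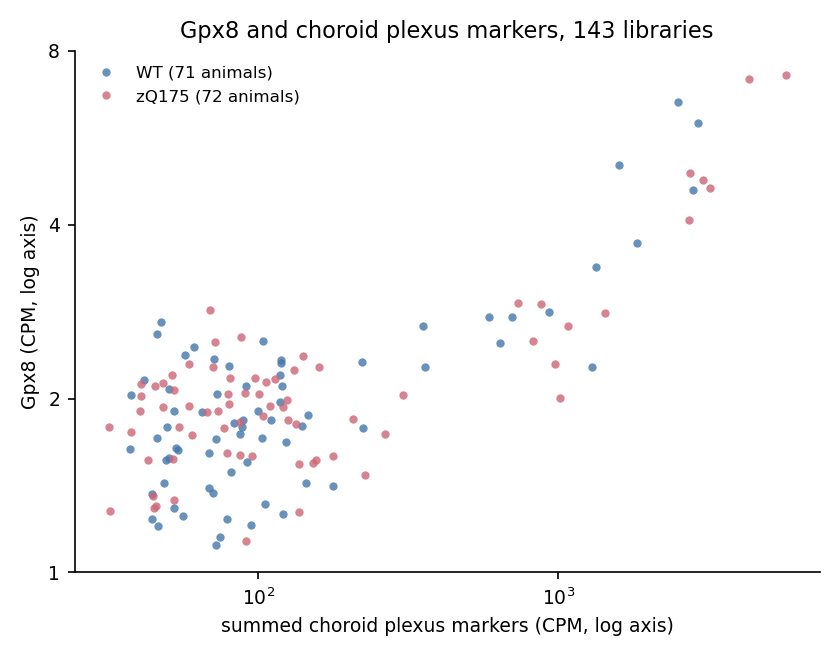
Gpx8 in CPM (vertical, log axis) against the summed level of 12 choroid plexus markers in CPM (horizontal, log axis), a point per library, WT in blue and zQ175 in red. The 16 libraries with more than 1000 CPM of the markers have a median Gpx8 of 4.62 CPM, and the other 127 have 1.86.

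The genotype difference of Gpx8 under NTC was 0.49 ± 0.24 in 6[4]10 (adjusted p = 0.12). There 5 of the 12 choroid plexus markers were also called higher in zQ175 (median log2 difference 1.80), where 32.8% of all genes were called. Their sum had a median of 109 CPM in zQ175 and 101 CPM in WT. It reached 5741 CPM in the zQ175 female with replicate number 4 and 972 CPM at most in the others, against 934 CPM at most in WT. With choroid plexus and meningeal scores as covariates the Gpx8 difference was 0.20 (adjusted p = 0.36), and without replicate number 4 it was 0.07. Gpx8 was at -0.76 ± 0.24 with HTT-10150 against NTC in zQ175 of 6[4]10 (unadjusted p = 0.0032, adjusted p = 0.73), and at -0.18 with those covariates. Neither value was called.

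Gpx3 and Gpx7 were rare and were called in no genotype or treatment comparison. Gpx3, the secreted peroxidase, ran from 1.54 to 5.04 CPM in WT and from 1.019 to 5.07 CPM in zQ175, and its genotype difference under NTC was -0.08 ± 0.20, -0.06 ± 0.17 and 0.04 ± 0.20. Within groups it went against medium spiny neuron markers (r = -0.49, rho = -0.58, n = 143) and with Camk2d (r = 0.72). Gpx7 ran from 1.25 to 3.08 CPM in WT and from 1.66 to 3.36 CPM in zQ175, at -0.15 ± 0.13, 0.28 ± 0.12 and 0.17 ± 0.11 under NTC (adjusted p = 0.38, 0.078 and 0.22). With choroid plexus and meningeal scores as covariates the 6[4]10 value was 0.33 (adjusted p = 0.030). No gene followed Gpx7 closely (Puf60, r = 0.43).

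Between animals of one group the 10 genes did not move as a unit. The closest pair was Gpx1 and Gpx4 (r = 0.52, rho = 0.45, n = 143), followed by Gpx4 and Gsr (r = 0.37), while Gpx4 and Gclm went in opposite directions (r = -0.38). Gpx4 followed Cox4i1, Rabac1 and Drap1 most closely (r = 0.88, 0.87 and 0.84), and microglia markers with r = 0.57. Gpx1 followed Pdcd6 (r = 0.72), Gclm followed Stag2 (0.65), Gsr followed Alkbh7 (0.57) and Gclc followed Mef2a (0.51). These correlations are descriptions over libraries that share depth and dissection.

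**Figure D5:**
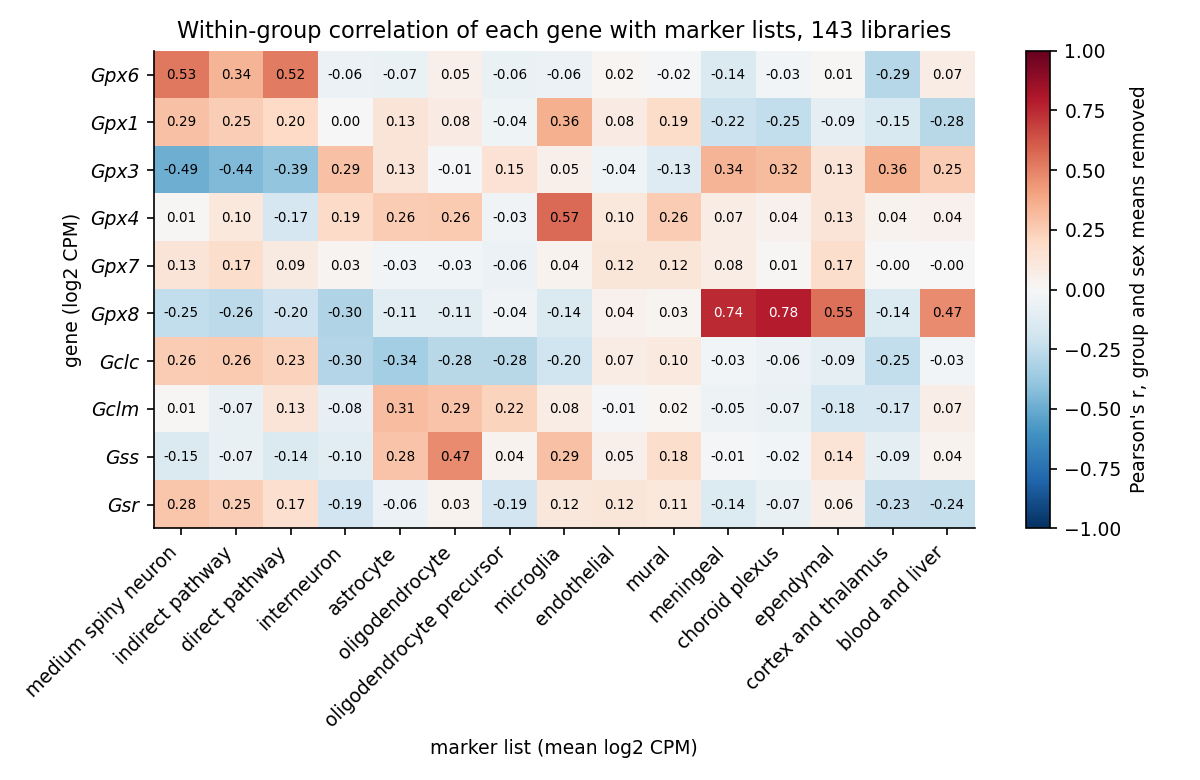
Pearson's r between the log2 CPM of each of the 10 genes (rows) and the mean log2 CPM of 15 lists of cell type markers (columns) over 143 libraries, after group and sex means were removed. Gpx8 has 0.78 with choroid plexus and 0.74 with meningeal markers, Gpx6 has 0.53 with medium spiny neuron markers and Gpx3 has -0.49 with the same.

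Other genes of glutathione use and redox defence were called in both directions under NTC, where 34.4%, 32.8% and 42.1% of all genes were called in 2[4]6, 6[4]10 and 2+6[8]10. The counts below are to be read against those shares, and nothing particular to a list is drawn from them. Of 20 tested glutathione S-transferases, which couple glutathione to other molecules, 3, 4 and 5 were higher and 5, 5 and 4 lower in 2[4]6, 6[4]10 and 2+6[8]10, with medians of -0.04, 0.01 and -0.03. Gstm6 fell by 0.53 ± 0.08, 0.76 ± 0.09 and 0.81 ± 0.10, Gstm5 fell by 0.28, 0.27 and 0.29, and Gsto1 rose by 0.44 ± 0.05, 0.45 ± 0.06 and 0.58 ± 0.06. Of 20 tested genes for cysteine and glutathione supply and breakdown, 2, 1 and 3 were higher and 6, 4 and 6 lower (medians -0.04, -0.00 and -0.07). Cbs, which makes cystathionine on the way to cysteine, fell by 0.24 ± 0.07, 0.26 ± 0.06 and 0.38 ± 0.06, and Slc7a11, the cystine importer, fell by 0.16, 0.30 and 0.22. Ggt7, of the gamma-glutamyltransferase family, rose by 0.26, 0.25 and 0.25.

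Of 13 genes of the thioredoxin system, the parallel thiol pathway, 2, 2 and 4 were higher and 5, 2 and 5 lower (medians -0.05, -0.05 and 0.02). Prdx6, a peroxiredoxin that uses glutathione, fell by 0.14 ± 0.04, 0.18 ± 0.05 and 0.22 ± 0.03, Prdx5 fell by 0.24, 0.13 and 0.16, and Prdx2 rose by 0.10, 0.16 and 0.12. Of 5 genes of superoxide dismutases and catalase, 2, 1 and 2 were higher and 1, 1 and 2 lower (medians -0.10, 0.10 and -0.11). Sod2, the mitochondrial dismutase, rose by 0.09, 0.10 and 0.22, and Cat fell by 0.10, 0.17 and 0.12.

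Of NRF2, its regulators and further targets, 1 and 3 of 16 and 2 of 15 were higher and 3 and 3 of 16 and 4 of 15 lower (medians -0.03, 0.02 and 0.00). Blvrb fell by 0.60 ± 0.09, 0.52 ± 0.08 and 0.59 ± 0.08. G6pdx, which supplies NADPH, fell by 0.28, 0.25 and 0.25, and Pgd, the next NADPH source of the same pathway, rose by 0.15, 0.22 and 0.13. Among 13 tested genes of lipid peroxidation and iron in ferroptosis, 3, 1 and 4 were higher and 2, 2 and 1 lower (medians -0.03, 0.01 and -0.00). Aifm2, a suppressor of ferroptosis beside Gpx4, rose by 0.37 ± 0.07, 0.24 ± 0.06 and 0.34 ± 0.07, and Fth1, the ferritin heavy chain, fell by 0.25, 0.34 and 0.27.

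Because Gpx1, Gpx3 and Gpx4 need selenocysteine, genes of its synthesis and the other selenoproteins were counted too. Of 11 synthesis genes, 1, 3 and 2 were higher and 1, 0 and 1 lower (medians 0.01, 0.02 and 0.03), and Trnau1ap, which binds the selenocysteine tRNA, rose by 0.16, 0.26 and 0.11. Of 12 other selenoproteins, 3, 3 and 4 were higher and 5, 4 and 5 lower (medians -0.07, -0.02 and -0.05). Selenom fell by 0.42 ± 0.04, 0.31 ± 0.06 and 0.38 ± 0.05, Dio2 fell by 0.23, 0.49 and 0.37, and Selenon rose by 0.34, 0.28 and 0.27. HTT-10150 against NTC in zQ175 called 0 genes of these 8 lists in 2[4]6 and 6[4]10, where 0.0% of all genes were called. In 2+6[8]10, where 3.16% of all genes were called, only Gstm5 and Selenow of the 8 lists were called, both higher. They were 1 of 20 tested glutathione S-transferases and 1 of 12 other selenoproteins. Nothing particular to the lists is drawn from these calls.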

How the data were processed

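The 143 libraries, 1 for each mouse, were made from polyA-selected striatal RNA. The deposited table holds expected counts that the authors made with RSEM against GRCm38, per the submitters' processing notes; no source used here gives the versions or the aligner. A deposited companion table, named for FPKM, sums to 1000000 in each library and was therefore read as TPM, the authors' value per length. Of 41135 entries, 7 named no mouse gene (5.91e-06% of counts) and were left out.

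Expected counts were rounded to whole numbers. edgeR 4.0.16 (R 4.3.3; filterByExpr by group, TMM, robust quasi-likelihood F test) was fitted per strategy over its 6 groups with sex, and over all libraries with sex within strategy for contrasts between strategies. Genes with a Benjamini-Hochberg adjusted p under 0.05, over every gene in the fit, were called. SE is the log2 fold change over the square root of F. CPM are TMM-scaled, and log2 CPM have a prior count of 2. The fit was tested on simulated data. Animals are taken as separate replicates, as labelled. Alternatives included DESeq2 1.42.0.

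The 10 members and all gene lists were chosen with earlier results of these data known. Named genes are the members, Gpx2, Gpx5, Htt, up to 3 genes of each list with the largest change among those called alike in all 3 strategies, genes within 250 kb of Gpx6, and those most like each member, of which 1 is not reported here; Gstm5 and Selenow under HTT-10150, Drd1 and Slc17a7 were named after their values were seen. Positions are from GENCODE M21 on GRCm38.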

Additional observations from a re-analysis of the deposited data

Results flagged for a closer look

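Within each group, the highest or lowest animal was compared with the rest by Dixon's gap ratio. It stood apart in 23 of 180 sets of 1 gene in 1 group, where chance alone gives about 1 in 20. Gpx8 accounted for 9 of them, all high animals: 5.99 CPM in 2[4]6 untreated WT, 3.71 in WT NTC, 6.53 in WT HTT-10150 and 7.15 in zQ175 HTT-10150 of the same strategy, 4.60 in WT HTT-10150 and 7.28 in zQ175 NTC of 6[4]10, and 5.07 in untreated WT, 4.64 in zQ175 NTC and 4.91 in zQ175 HTT-10150 of 2+6[8]10. All other animals of these groups were at 3.38 CPM or less, and each of the 9 had a choroid plexus marker sum over 1000 CPM.

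Gpx4 stood apart in 4 groups, at 315 CPM in untreated zQ175 of 6[4]10, 244 in zQ175 NTC and 235 in WT NTC of 6[4]10, and 234 in WT NTC of 2+6[8]10. The first is the same animal that gave Gpx1 at 129 CPM. Gpx1 was also high at 98.5 CPM in 1 WT NTC animal of 6[4]10 and 100.4 in 1 zQ175 HTT-10150 animal of 2[4]6, and low at 73.0 in 1 untreated WT animal of 2+6[8]10. Gclc was low at 58.4 CPM in 1 untreated zQ175 animal and at 61.8 in 1 zQ175 HTT-10150 animal of 2+6[8]10, and Gclm was high at 69.1 in another of the latter group.

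Gpx3 reached 5.07 CPM in 1 zQ175 NTC animal of 6[4]10, the one with Gpx8 at 7.28. Gpx7 was low at 1.26 CPM in 1 WT NTC animal of 6[4]10, and Gpx6 was high at 12.9 CPM in the untreated WT female of 2+6[8]10 that had Gpx8 at 5.07.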

How the results depend on the processing

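The Gpx6 decrease in zQ175 was called in every alternative run, between -4.04 and -3.60 log2 units in 2[4]6, -4.58 and -4.25 in 6[4]10 and -4.39 and -4.05 in 2+6[8]10 under NTC. Over all alternatives of single genes, Gpx6 included, 1691 fold changes stayed on their side of the threshold (uncalled ones could change sign), 59 lost a call, 12 gained one and 1 called change reversed; 426 counts and summaries kept their size and 26 moved. The 2 genes called for HTT-10150 in zQ175 of 2+6[8]10 became 0 with all 18 groups in one fit, with the length and GC slopes as covariates, with only the 2 groups compared or with untreated controls, and 1 with choroid plexus and meningeal scores, with no filter or with no sex term; without each replicate number in turn they ranged from 0 to 2. With the slopes Gpx4 turned to -0.0035 there (adjusted p = 0.99). For sex in 2[4]6 the slopes gave 2 called genes in place of 1. Without each replicate number in turn, the genotype counts of 6[4]10 ran from 1 to 2 under NTC, in place of 3, and from 1 to 3 under HTT-10150, in place of 2. For untreated WT these ran from 0 to 1 (2+6[8]10 against 2[4]6) and from 0 to 2 (against 6[4]10). For untreated zQ175 they ran from 0 to 1 (2+6[8]10 against 2[4]6), from 1 to 2 (against 6[4]10) and from 0 to 3 (6[4]10 against 2[4]6). Leaving out the 6[4]10 untreated zQ175 male with replicate number 2 gave 1 and 0 in place of 2 and 2 in the last pair, and no filter gave 1 in the last. The cause was not tested. The slopes and this left-out library were chosen after seeing the data.

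Replicate numbers did not pair animals: correlations of same-numbered deviations had medians from -0.06 to 0.07 over the contrasts. With the number within sex as a replicate block, Gpx4 was called lower in zQ175 of 2[4]6, at -0.13 with HTT-10150 (adjusted p = 0.0032) and -0.09 with NTC (adjusted p = 0.038), and Gpx6 kept its calls. Depth limits Gpx6 in zQ175, with 0 to 30 counts, and Gpx3, Gpx7 and Gpx8.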
